A study of Mus musculus with 12 samples.

Results

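Pericentral genes are those that hepatocytes next to the central vein of the liver lobule express most. The genes described here are 10 named pericentral and Wnt-dependent liver genes, Cyp1a2, Cyp2e1, Oat, Glul, Axin2, Tbx3, Slc1a2, Lhpp, Rgn and Lect2, chosen by name. Of these, 8 had a probe set in the deposited values, among 11861 genes in all, and Glul and Axin2 were not analysed here. No member had more than 1 probe set. Spheroids are compact aggregates that hepatocytes form when they cannot attach to the plate. They were made from 4 frozen hepatocyte preparations, 2 male and 2 female, each pooled from 3 mice of the inbred strain C57BL/6, with no age given in the labels. Every preparation was read on 1 expression array at culture day 1, day 7 and day 14, which made 6 combinations of sex and day with 2 arrays in each. The design compares days and sexes, and all arrays share the freezing, the pooling and a culture on surfaces of very low attachment.

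In liver, endothelial cells of the central vein release Wnt ligands and R-spondins, which stabilize beta-catenin in the hepatocytes around them. Beta-catenin with TCF factors then turns on genes of glutamine synthesis, glutamate uptake and drug metabolism, and represses genes that mark hepatocytes near the portal vein. Isolated hepatocytes of all zones are mixed in culture, so that a level in a spheroid is an average over zones. In bulk RNA, fewer cells that express a gene and less RNA per cell cannot be told apart.

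Values are log2 levels, so that a difference of 1 is a 2-fold change, and levels of different genes are not compared. Array medians lay between 7.47 and 7.53. Each probe set in the table reached at least 4.79 on at least 1 array, and levels under 4.79 are called near background here. Slc1a2 entered through 1 array alone, and 11 of its 12 values were below that level. Cyp2e1 lay below it on 6 arrays, and the other 6 members on none. Hepatocyte markers, such as Alb, the main plasma protein, and Cps1 of the urea cycle, stood at or above 10.7 on every array.

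The promoters of 4 measured genes are shown so that the letters before their start sites can be read beside the values. Each is the 250 bases upstream of the RefSeq start, from RefSeq on GRCm38.p6, 5′ to 3′ on the gene's strand. The set of RefSeq windows used here covered 7 of the 10 genes and 5 of the 8 measured ones, and not Tbx3, Lhpp or Rgn. Capitals mark the TCF/LEF core CTTTGA or its reverse complement TCAAAG, and the TATA box TATAAA, which do not overlap. Cyp2e1 lies at chr7:140763569-140763818 on the plus strand, Oat at chr7:132576399-132576648, Cyp1a2 at chr9:57683656-57683905 and Lect2 at chr13:56548539-56548788, the last 3 on the minus strand.
Cyp2e1: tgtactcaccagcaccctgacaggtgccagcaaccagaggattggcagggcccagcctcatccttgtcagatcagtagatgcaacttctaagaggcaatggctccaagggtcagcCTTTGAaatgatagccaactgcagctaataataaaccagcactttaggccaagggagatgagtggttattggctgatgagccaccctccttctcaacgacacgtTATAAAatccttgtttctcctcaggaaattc
Oat: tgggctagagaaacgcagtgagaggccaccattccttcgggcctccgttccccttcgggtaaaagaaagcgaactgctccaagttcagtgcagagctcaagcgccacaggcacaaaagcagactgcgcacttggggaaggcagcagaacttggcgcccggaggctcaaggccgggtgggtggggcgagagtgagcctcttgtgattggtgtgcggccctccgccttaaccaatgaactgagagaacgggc
Cyp1a2: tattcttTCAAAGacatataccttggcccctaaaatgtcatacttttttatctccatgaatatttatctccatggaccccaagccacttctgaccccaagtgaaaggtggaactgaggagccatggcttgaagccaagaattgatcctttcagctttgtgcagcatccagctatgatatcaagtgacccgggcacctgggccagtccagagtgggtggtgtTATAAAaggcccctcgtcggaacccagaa
Lect2: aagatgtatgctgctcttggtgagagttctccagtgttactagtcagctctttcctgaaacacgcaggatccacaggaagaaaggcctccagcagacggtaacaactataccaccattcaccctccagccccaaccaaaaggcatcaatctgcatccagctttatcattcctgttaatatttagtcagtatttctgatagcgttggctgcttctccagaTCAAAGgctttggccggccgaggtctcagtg
Searched on both strands, the core CTTTGA was held by 13.8% of 32851 RefSeq windows of this length, and TATAAA by 12.4%. In the Cyp2e1 window the core begins at position -135 and the TATA box at -31, counted from the start. The Cyp1a2 window holds both, the reversed core at -243 and the TATA box at -29. The Lect2 window holds the reversed core alone, at -31, and the Oat window holds neither run of letters. Of the windows not printed, that of Slc1a2 holds 2 matches to the core, those of Glul and Axin2 hold 0, and none holds the TATA box. A match describes the letters in this window and is no evidence of binding.

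Between days 1 and 14, Oat, Tbx3 and Lhpp were called lower, and no member was called higher. Of the 8 estimates, 5 lay below 0 and 3 above. Oat, a mitochondrial aminotransferase that turns ornithine toward glutamate, fell by 1.13 ± 0.12 in log2 units (SE, 4 preparations at each day), or 2.19-fold, with the same sign in 4 of 4 preparations (limma adjusted p = 0.000937). Tbx3, a T-box transcription factor downstream of beta-catenin in liver, fell by 0.72 ± 0.16, and Lhpp, a histidine phosphatase, fell by 0.73 ± 0.20, both in 4 of 4 preparations (limma adjusted p = 0.0222 and 0.0476). Thus 3 of 8 members were called lower, where 6.8% of all genes were, and 0 were called higher, where 7.59% of all genes were. The median change of the 8 members was -0.43, against 0.01 over all genes.

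In male preparation 1, Oat stood at 7.95, 7.15 and 6.86 at days 1, 7 and 14. In male preparation 2 it stood at 8.19, 7.44 and 6.84. The female preparations held 8.76, 8.18 and 7.72 in the first and 8.56, 7.73 and 7.52 in the second. All 4 arrays of day 14 lay below all 4 of day 1. At each day both male arrays lay below both female ones, as they also did for Cyp1a2, Tbx3, Lhpp and Lect2. The share of all genes with that order within a single day was not counted. For preparation means over the 3 days, 24% of all genes had both males below both females and 29.6% the opposite. Such an order is thus common. Between days 7 and 1 Oat fell by 0.74 ± 0.12 (SE, 4 preparations per day, limma adjusted p = 0.0151), the 1 call among the 8 members, where 4.72% of all genes were called (2.74% higher and 1.98% lower). No member had its 4 arrays of day 7 all below or all above those of day 1, an order that 5.19% and 5.24% of all genes showed. From day 7 to day 14 it differed by -0.39 ± 0.12 (limma adjusted p = 0.199), again below 0 in 4 of 4 preparations. The change to day 14 passed whichever preparation was left out (limma adjusted p = 0.00949 to 0.0283). The change to day 7 did not pass in any such fit: adjusted p was 0.169 without male preparation 1, 0.129 without male 2, 0.0604 without female 1 and 0.0815 without female 2, although the value stayed between -0.80 and -0.68.

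Tbx3 stood at 6.03, 5.41 and 4.87 at days 1, 7 and 14 in male preparation 1, and at 6.07, 5.70 and 5.57 in male preparation 2. Female preparation 1 held 6.52, 6.24 and 6.00, and female preparation 2 held 6.54, 5.74 and 5.84. As for Oat, the 4 arrays of day 14 lay below the 4 of day 1, an order shown by 7.57% of all genes, while no member showed the opposite order, as 8.25% of all genes did. Day 7 against day 1 gave -0.52 ± 0.16 (SE, 4 preparations per day, limma adjusted p = 0.126) and day 14 against day 7 gave -0.20 ± 0.16 (limma adjusted p = 0.659). The call for day 14 against day 1 held without male preparation 2 (adjusted p = 0.0435) and was lost without male 1 (0.128), female 1 (0.0923) or female 2 (0.126).

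Lhpp was nearly level over the first week and lower after the second. Male preparation 1 held 5.77, 5.78 and 5.09 at days 1, 7 and 14, and male preparation 2 held 6.10, 5.92 and 5.58. The female values were 7.18, 7.11 and 6.46 in preparation 1 and 6.70, 6.68 and 5.70 in preparation 2. Because the sexes stood apart, the day 14 levels of the females overlapped the day 1 levels of the males. Day 7 against day 1 gave -0.06 ± 0.20 (SE, limma adjusted p = 0.91). Day 14 against day 7 gave -0.67 ± 0.20, below 0 in 4 of 4 preparations (limma adjusted p = 0.195, and 0.0364 in the paired fit that takes the preparation as a block). The 0 of 8 members called in this comparison without the block compares with 0.489% of all genes, and 2 members had an unadjusted p under 0.05, as did 13.7% of all genes. The call for day 14 against day 1 was lost whichever preparation was left out, at adjusted p of 0.24 without male 1, 0.183 without male 2, 0.0554 without female 1 and 0.0907 without female 2.

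**Figure D1:**
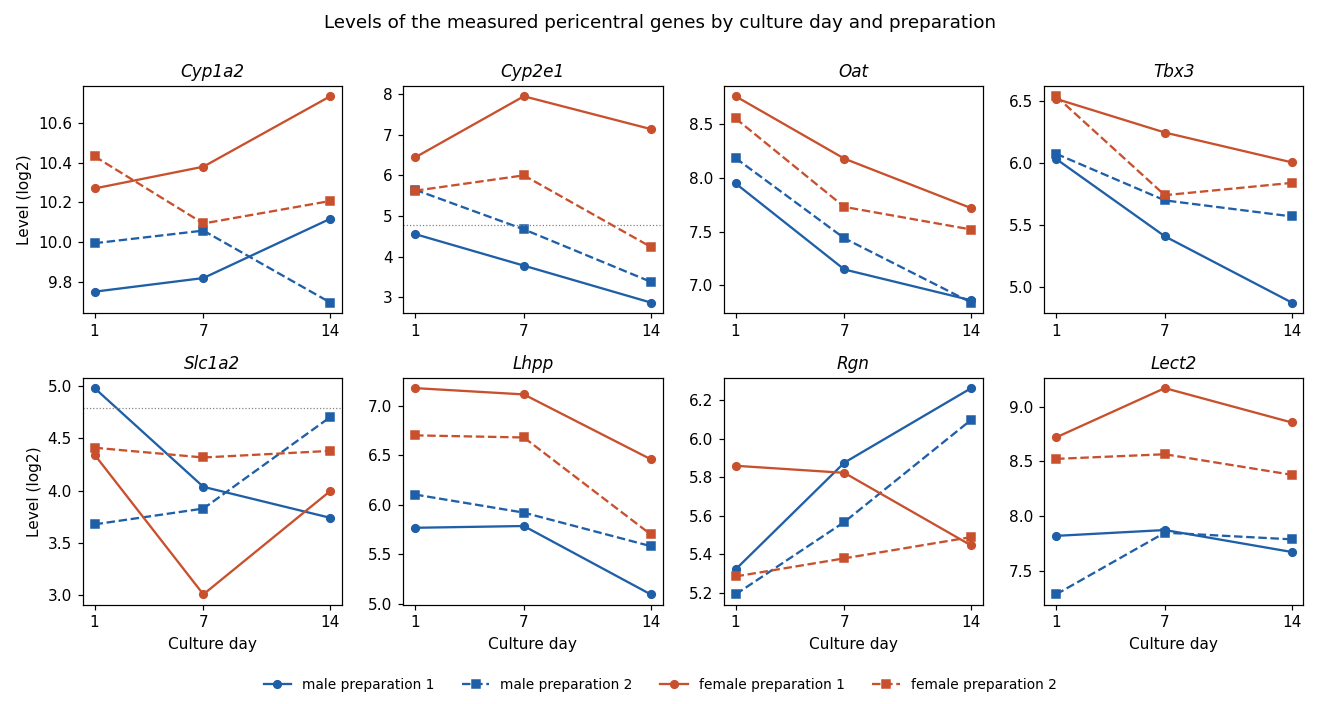
Log2 level of each measured pericentral gene against culture day, 1 panel per gene with its own axis, 1 line per preparation (blue male, orange female, 1 array per point). The dotted line marks 4.79 in the panels that reach it. Oat falls in every line, from 7.95 to 8.76 at day 1 to 6.84 to 7.72 at day 14, while the 2 Cyp2e1 lines of the females rise and those of the males fall from day 1 to day 7.

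The drug-metabolizing enzymes of the pericentral zone differed in their spread. Cyp1a2, a cytochrome P450 that oxidizes caffeine and aromatic amines, passed in no day comparison. It stood at 9.75, 9.82 and 10.12 at days 1, 7 and 14 in male preparation 1 and at 9.99, 10.06 and 9.70 in male preparation 2. Female preparation 1 held 10.27, 10.38 and 10.73, and female preparation 2 held 10.43, 10.09 and 10.21. The first preparation of each sex was higher and the other lower at day 14 than at day 1, and the change of 0.08 ± 0.15 did not pass (SE, 4 preparations per day, limma adjusted p = 0.791).

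Cyp2e1, the P450 that oxidizes ethanol and paracetamol, had the largest spread of the 8 members over the 12 arrays (SD 1.54), larger than that of 99.8% of genes. Male preparation 1 held 4.56, 3.78 and 2.87 at days 1, 7 and 14, and male preparation 2 held 5.65, 4.67 and 3.38. Female preparation 1 held 6.44, 7.94 and 7.14, and female preparation 2 held 5.62, 6.00 and 4.24. At days 7 and 14 both male arrays lay below both female arrays, an order that Oat, Cyp1a2, Tbx3, Lhpp and Lect2 also showed on those days. The share of all genes with it within a day was not counted. Over the 3 days, 5 of the 6 male arrays were near background. From day 1 to day 7 the mean change was -0.87 in the males and 0.94 in the females, with both preparations of a sex moving the same way. The difference between those changes was -1.82 ± 1.33 (SE, 2 preparations per sex) and did not pass (limma adjusted p = 0.99). From day 7 to day 14 all 4 preparations were lower, by -1.19 ± 0.66 on average (limma adjusted p = 0.486). Day 14 against day 1 gave -1.16 ± 0.66 (limma adjusted p = 0.301), with female preparation 1 at 0.70 and the others at -1.38 to -2.26. The mean change over the first week of 0.03 therefore averaged values of opposite sign.

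The AHR battery list, of which 6 of 9 genes were measured, concerns the aryl hydrocarbon receptor, which also drives Cyp1a2. It holds the receptor gene Ahr and its partner gene Arnt beside genes that the receptor turns on. In day 14 against day 1, Nqo1, a quinone reductase, rose by 0.61 ± 0.09 and Tiparp, a feedback repressor of the receptor, fell by 0.56 ± 0.07 (limma adjusted p = 0.00434 and 0.00134), and 3 of the 6 lay above 0. Of all genes 7.59% were called higher and 6.8% lower. Without male preparation 1 Nqo1 no longer passed (adjusted p = 0.0554), and Tiparp passed whichever preparation was left out. Cyp1a1, the inducible relative of Cyp1a2, had mean levels of 9.71 ± 0.92 and 9.77 ± 0.53 over days 1 and 14 (SD, n = 4, limma adjusted p = 0.95).

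Lect2 and Rgn did not pass in any day comparison. Lect2, a protein that hepatocytes secrete and a known Wnt target in liver, stood at 7.82, 7.87 and 7.67 at days 1, 7 and 14 in male preparation 1 and at 7.28, 7.85 and 7.79 in male preparation 2. The females stood at 8.72, 9.17 and 8.86 in preparation 1 and at 8.52, 8.56 and 8.38 in preparation 2. All 6 female arrays lay above all 6 male arrays, an order shown by 1.48% of all genes (the opposite by 1.8%). All 4 preparations were higher at day 7 than at day 1 and lower at day 14 than at day 7, by 0.28 ± 0.17 and -0.19 ± 0.17 on average (SE, limma adjusted p = 0.429 and 0.692).

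Rgn encodes regucalcin, a calcium-binding protein that also acts as a lactonase in vitamin C synthesis. It stood at 5.32, 5.88 and 6.26 at days 1, 7 and 14 in male preparation 1 and at 5.19, 5.57 and 6.10 in male preparation 2. Female preparation 1 held 5.86, 5.82 and 5.45, and female preparation 2 held 5.29, 5.38 and 5.49. The males were thus higher at each later day, while 1 female preparation was lower and the other slightly higher at day 14. The change to day 14 was 0.92 in the males and -0.10 in the females. Their difference of 1.03 ± 0.30 (SE, 2 preparations per sex) had an unadjusted limma p of 0.00742 and an adjusted p of 0.418. At day 14 the males stood 0.71 ± 0.21 above the females (limma adjusted p = 0.156). Over both sexes the change to day 14 was 0.41 ± 0.15 (limma adjusted p = 0.104).

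Slc1a2, a plasma membrane glutamate transporter known as GLT-1, could not be followed. It stood at 4.98, 4.04 and 3.74 at days 1, 7 and 14 in male preparation 1, and at 3.68, 3.83 and 4.70 in male preparation 2. The female values were 4.34, 3.01 and 4.00 in preparation 1 and 4.41, 4.32 and 4.38 in preparation 2. The preparations had no common order over days, and the change to day 14 was -0.15 ± 0.37 (SE, limma adjusted p = 0.84).

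**Figure D2:**
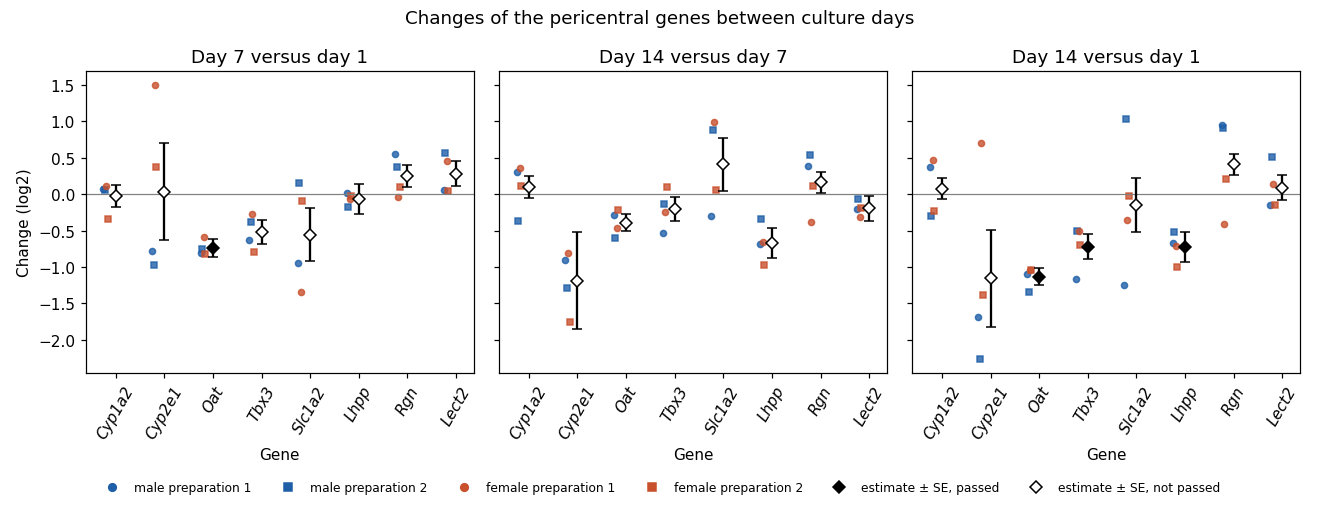
Change in log2 level between culture days for each measured pericentral gene, with 1 panel per comparison. Small marks are the 4 preparations, diamonds the limma estimates with SE bars, filled where the adjusted p was under 0.05. The filled diamonds are Oat at -0.74 for day 7 against day 1, and Oat, Tbx3 and Lhpp at -1.13, -0.72 and -0.73 for day 14 against day 1.

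The sexes were compared over all days after the 3 arrays of a preparation had been averaged, which left 2 male and 2 female values per gene. None of the 8 members passed by limma, where 0.177% of all genes did (0.0927% higher and 0.0843% lower in males), while 6 had an unadjusted p under 0.05, as did 19.8% of all genes. These 6, Cyp1a2, Cyp2e1, Oat, Tbx3, Lhpp and Lect2, had both male preparations below both female ones, an order shown by 24% of all genes, and 29.6% showed the opposite order, which no member did. The median male minus female difference of the 8 members was -0.61, against 0.02 over all genes. Cyp2e1 stood at 3.74 and 4.57 in the males and at 7.17 and 5.29 in the females, a difference of -2.08 ± 0.69 (SE, limma adjusted p = 0.217). Both male means lay below 4.79, so the size of this difference is not well measured, and it ran from -3.02 without female preparation 2 to -1.14 without female preparation 1. Lect2 stood at 7.79 and 7.64 against 8.91 and 8.49, a difference of -0.99 ± 0.16 (limma adjusted p = 0.0919). Lhpp differed by -0.93 ± 0.22, Oat by -0.68 ± 0.12, Tbx3 by -0.54 ± 0.15 and Cyp1a2 by -0.45 ± 0.09 (limma adjusted p = 0.141, 0.105, 0.171 and 0.12). Rgn and Slc1a2 differed by 0.17 ± 0.14 and 0.09 ± 0.21 (limma adjusted p = 0.554 and 0.854). With a trended and robust spread, which follows the spread of genes of like level, Cyp1a2, Oat, Tbx3, Lhpp and Lect2 passed (5 of 8), and so did 974 of all genes against 21 in the first fit. Among genes with a mean of at least 6, Oat and Lect2 passed (adjusted p = 0.048 and 0.0378). Within single days 0 of 8 members passed by limma, where 0.767%, 0.354% and 1.06% of all genes did at days 1, 7 and 14. At an unadjusted p under 0.05 were 3, 4 and 7 members, against 13.5%, 13.2% and 14.9% of all genes. The 7 of day 14 were Rgn, higher in males, and Cyp1a2, Cyp2e1, Oat, Tbx3, Lhpp and Lect2, lower in males. The trended and robust spread called Oat alone at each of these days (adjusted p = 0.0458, 0.0324 and 0.00946). For the sex difference in the change from day 1 to day 14, 0 of 8 members passed by limma, as did 0% of all genes. An unadjusted p under 0.05 was given for 1 member, Rgn, and for 6.87% of all genes, so that this count is near the background. With the trended and robust spread 0 of 8 passed as well.

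**Figure D3:**
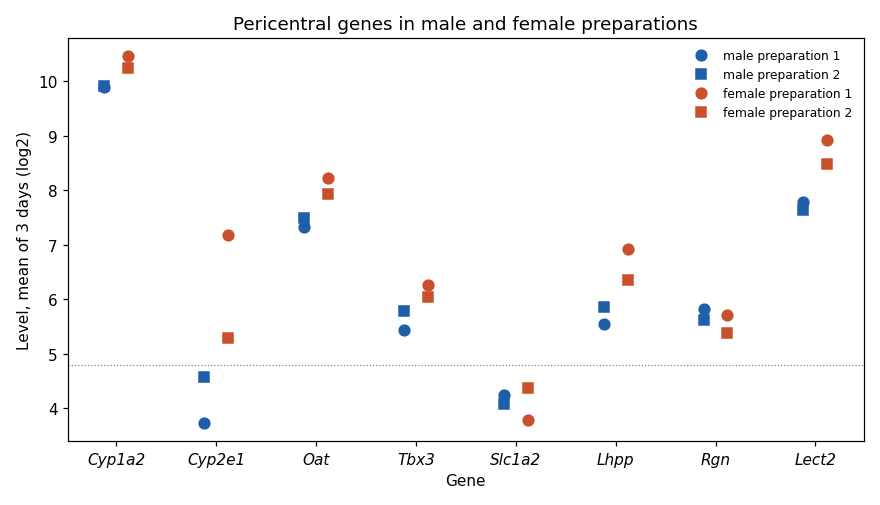
Log2 level of each measured pericentral gene, averaged over the 3 culture days, in each of the 4 preparations (blue male, orange female). The dotted line marks 4.79. For Cyp1a2, Cyp2e1, Oat, Tbx3, Lhpp and Lect2 both orange marks lie above both blue ones, and for Cyp2e1 both blue marks, at 3.74 and 4.57, lie below the dotted line.

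Other pericentral hepatocyte genes were a list of 28, of which 20 were measured. In day 14 against day 1, 2 were called higher and 0 lower, with a median of -0.14. Of all genes 7.59% were called higher and 6.8% lower, so these counts are near the background. Aldh1a1, which oxidizes retinal, rose by 0.42 ± 0.09 and Aldh3a2, which oxidizes fatty aldehydes, rose by 0.26 ± 0.07 (SE, limma adjusted p = 0.0166 and 0.0402). Cyp3a11, a major drug-metabolizing P450 whose probe set may read close relatives, differed by -0.66 ± 0.37 (limma adjusted p = 0.293). In day 7 against day 1, Akr1c6, a steroid dehydrogenase, rose by 1.27 ± 0.28 and Aldh3a2 by 0.30 ± 0.07 (limma adjusted p = 0.0416 and 0.0498). In that comparison 2.74% of all genes were called higher. Akr1c6 had a mean of 4.55 at day 1 and lay near background on 5 of 12 arrays, so the size of its rise is not well measured. None of these calls held when any 1 preparation was left out (adjusted p = 0.0587 to 0.169 for Aldh1a1, 0.0915 to 0.26 and 0.151 to 0.393 for Aldh3a2 at days 14 and 7, and 0.0733 to 0.252 for Akr1c6). Aldh3a2 also missed the threshold in the blocked fit, at an adjusted p of 0.0532 for day 14 and 0.0644 for day 7. By sex, 18 of the 20 lay below 0 for male minus female over all days, where 45.2% of all genes did, with a median of -0.46. In that comparison 0 passed by limma and 15 had an unadjusted p under 0.05, as did 19.8% of all genes. The values furthest from 0 were Cyp3a11 at -2.85 ± 0.37 and Cyp2a5, a P450 that oxidizes coumarin and has near-identical relatives, at -1.963 ± 0.20 (SE, limma adjusted p = 0.0753 and 0.0663). The constitutive androstane receptor gene Nr1i3, a regulator of drug metabolism, stood at -1.13 ± 0.18 and the paraoxonase gene Pon1 at -1.65 ± 0.21 (SE, 2 preparations per sex, limma adjusted p = 0.0919 and 0.0753). Within single days, limma called 1, 1 and 3 of the 20 lower in males at days 1, 7 and 14, and 0 higher. The shares of all genes called lower on those days were 0.422%, 0.16% and 0.809%.

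Periportal hepatocyte genes, which mark the opposite end of the lobule, had 15 of 20 measured. In day 14 against day 1 Aldh1b1, a mitochondrial aldehyde dehydrogenase, rose by 0.63 ± 0.18, while Fbp1 of gluconeogenesis fell by 0.34 ± 0.09 and the protease gene Ctsc fell by 0.24 ± 0.06 (SE, limma adjusted p = 0.0487, 0.0482 and 0.0243). The median was -0.13, close to the -0.14 of the other pericentral list. Male minus female over all days had a median of -0.18, with 9 of 15 below 0, where 45.2% of all genes were. All 3 calls were lost whichever preparation was left out (adjusted p = 0.0508 to 0.257, 0.0796 to 0.305 and 0.124 to 0.195), and after a second quantile normalization Aldh1b1 and Fbp1 stood at 0.0527 and 0.0544.

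Oat and Slc1a2 belong to the exchange of ornithine, glutamate and glutamine, in which 14 of 20 further listed genes were measured. In day 14 against day 1, 0 rose and 3 fell: Prodh, which begins proline breakdown, by 0.58 ± 0.08, Got1, the cytosolic aspartate aminotransferase, by 0.42 ± 0.07, and the amino acid importer Slc38a4, by 0.23 ± 0.06 (SE, limma adjusted p = 0.00286, 0.00573 and 0.0448). Of all genes 7.59% were called higher and 6.8% lower. The list median was 0.00. Otc, the urea cycle enzyme that shares ornithine with Oat, differed by 0.05 ± 0.22 (limma adjusted p = 0.921). Prodh2, the hydroxyproline dehydrogenase gene, rose by 0.94 ± 0.19 in day 7 against day 1 (limma adjusted p = 0.0319). Calls were lost for Prodh and Got1 without male preparation 1 or male 2 (adjusted p up to 0.0729 and 0.104), and for Slc38a4 and Prodh2 whichever preparation was left out (0.117 to 0.277 and 0.0592 to 0.192). Slc38a4 stood at 0.052 with the preparation as a block.

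Of the Wnt ligands and the genes that release them, 7 of 13 were measured. Rspo3, an R-spondin that central vein endothelium makes, had mean levels of 6.11 ± 0.25, 5.70 ± 0.32 and 4.77 ± 1.67 over days 1, 7 and 14 (SD, n = 4), a change of -1.33 ± 0.46 (SE, limma adjusted p = 0.0892). Only 1 of its arrays lay near background, at 2.39 on day 14, so the size of this change leans on that array. Wnt9b, a ligand of the same cells, stood at 5.14 ± 0.24 and 4.94 ± 0.29 at days 1 and 14 (SD, n = 4, limma adjusted p = 0.384). In day 14 against day 1 the ligand gene Wnt4 fell by 0.79 ± 0.16 and Porcn, which attaches the lipid that Wnt proteins need, fell by 0.36 ± 0.08, while Wls, which carries Wnt proteins to the cell surface, rose by 0.64 ± 0.18 (SE, limma adjusted p = 0.0139, 0.0247 and 0.0423). Calls were lost for Porcn whichever preparation was left out (adjusted p = 0.0892 to 0.164), for Wnt4 in 3 of 4 such fits (all but that without female 1) and for Wls in 3 of 4 (all but that without male 1), with adjusted p up to 0.144 and 0.282. With the preparation as a block Wls did not pass (0.0658). The 1 rise and 2 falls among 7 compare with 7.59% of all genes called higher and 6.8% called lower.

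Among 11 measured Wnt receptor genes, Fzd4 fell by 0.59 ± 0.11 in day 14 against day 1 and no other passed (SE, limma adjusted p = 0.0108, up to 0.129 and lost in 3 of 4 fits, all but that without male preparation 2). That 1 fall among 11 compares with 6.8% of all genes called lower. Lgr4, the R-spondin receptor gene of hepatocytes, differed by 0.16 ± 0.06 (limma adjusted p = 0.134). Of 16 genes of the destruction complex and of beta-catenin's partners, Bcl9, a co-activator, rose by 0.57 ± 0.14 and Btrc, which marks beta-catenin for breakdown, rose by 0.26 ± 0.07 (limma adjusted p = 0.0257 and 0.045), and both calls were lost whichever preparation was left out (adjusted p = 0.065 to 0.174 and 0.0773 to 0.35), that of Btrc also with the preparation as a block (0.0738). These 2 rises among 16 compare with 7.59% of all genes called higher. Tcf7l2, a TCF factor of liver, had mean levels of 8.95 ± 0.15 and 8.95 ± 0.10 over days 1 and 14 (SD, n = 4).

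Direct Wnt feedback and target genes other than Tbx3 had 5 of 13 measured. In day 14 against day 1, 0 passed by limma, with 0 at an unadjusted p under 0.05. Of all genes 14.4% passed and 28.6% had such an unadjusted p. The ubiquitin ligase gene Znrf3, which removes Wnt receptors, stood at 6.80 ± 0.13 and 6.72 ± 0.11 at days 1 and 14 (SD, n = 4). Nkd1 and Notum, inhibitors that Wnt signalling itself turns on, lay near background on 9 and 11 of the 12 arrays, so that a change in them could not be followed. The 2 measured genes of secreted Wnt inhibitors and their receptors, Dkk3 and Kremen1, did not pass (-0.41 ± 0.44 and -0.28 ± 0.12, limma adjusted p = 0.6 and 0.159).

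**Figure D4:**
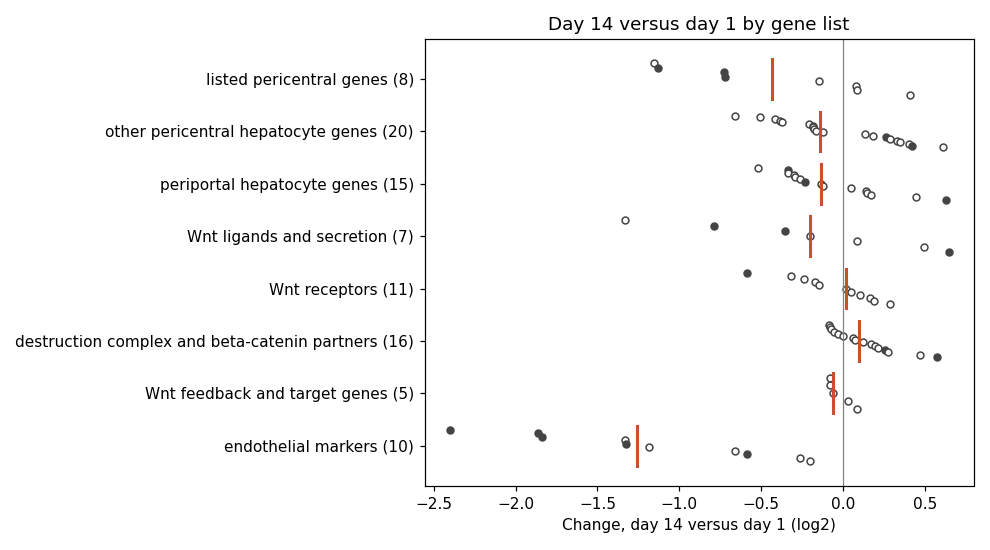
Change in log2 level from day 1 to day 14 for each measured gene of the listed pericentral genes, 6 further lists and the endothelial markers, with the number of genes in brackets. Each point is 1 gene, filled where the limma adjusted p was under 0.05, and the orange bar is the list's median. The medians are -0.43 for the listed pericentral genes, -0.14 and -0.13 for the other pericentral and the periportal list, and -1.26 for endothelial markers.

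Markers of other liver cells changed over the same days. Between the sexes over all days, 0 of the 10 endothelial and 0 of the 11 stellate markers passed by limma. All 10 and all 11 lay below 0 for male minus female, where 45.2% of all genes did. Their medians were -0.70 and -0.81. At an unadjusted p under 0.05 were 2 and 6, as were 19.8% of all genes. At day 14 alone, 1 endothelial and 1 stellate marker were called lower in males, where 0.809% of all genes were. On that day 4 and 9 had an unadjusted p under 0.05, as did 14.9% of all genes, and the stellate median was -2.26. No such marker was called at day 1 or day 7. Of 10 measured endothelial markers all 10 lay below 0 in day 14 against day 1 and 5 fell (median -1.26). In day 14 against day 1, 6.8% of all genes were called lower and 7.59% higher. The endothelial list includes Rspo3 and Wnt9b. The count of 5 became 4 without either male preparation and 1 without either female preparation, and Cdh5 passed in each of these fits. The summed log2 level of the endothelial markers ran from 9.68 to 10.11 at day 1, 8.67 to 10.02 at day 7 and 7.64 to 9.60 at day 14. By sex it ran from 7.64 to 9.998 in males against 9.14 to 10.11 in females. The defining genes Cdh5 and Kdr were near background on 7 arrays each and Pecam1 on 6. Stellate cell and fibroblast markers fell in 6 of 11 (median -1.46), with summed levels of 11.59 to 11.78 at day 1, 10.01 to 11.38 at day 7 and 8.57 to 11.37 at day 14, and of 8.57 to 11.70 in males against 11.26 to 11.78 in females. That count of 6 became 5 and 7 without male preparation 1 and 2, and 4 without either female preparation. Kupffer cell and macrophage markers rose in 1 of 11, Csf1r, a call lost whichever preparation was left out (adjusted p = 0.0605 to 0.149). Without female preparation 1 or 2 the count was 2 or 5, and without either male preparation 0 (list median 1.03, summed levels 7.58 to 8.89 at day 1 and 8.71 to 11.01 at day 14). Of 5 cholangiocyte markers, Cldn7, Krt19 and Epcam rose from day 1 means of 3.51, 4.39 and 3.43, all near background, and Epcam stayed there on 11 of 12 arrays. Epcam did not pass without male preparation 1 or 2 (adjusted p = 0.0826 and 0.127). Krt7 and Sox9, above background on every array, stood at -0.56 ± 0.22 and -0.22 ± 0.10 (SE, limma adjusted p = 0.134 and 0.201). The summed level of the 5 was 10.36 to 10.78 at day 1 and 10.12 to 10.69 at day 14. Hepatocyte markers had 0 of 7 past the test by limma (1 at an unadjusted p under 0.05), with summed levels of 14.97 to 15.03 at day 1 and 14.92 to 15.05 at day 14. The part of these markers in the falls of Oat, Tbx3 and Lhpp and in the sex differences was not tested.

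For the 3 members with the largest SD over the 12 arrays, the genes of most similar pattern were found by the root mean square difference between log2 values centred on each gene's own mean. Predicted and clone-named genes were left out of this search and of its medians. A nearest gene lies below the median by the way it is picked, so its distance does not show how unusual the likeness is. Nearest to Cyp2e1 (SD 1.54) was Cyp17a1, a P450 of steroid synthesis, at 0.66, where the median over the genes searched was 1.49. It stood at 9.65, 9.27 and 7.20 at days 1, 7 and 14 in male preparation 1 and at 10.04, 9.82 and 7.93 in male preparation 2. Female preparation 1 held 10.98, 11.22 and 10.76, and female preparation 2 held 10.64, 10.92 and 9.75. Like Cyp2e1, it was higher at day 7 than at day 1 in both female preparations and lower in both male ones. Pon1, Ppp1r3c, Ptges and Lyve1, an endothelial marker, followed at 0.76 to 0.81. Nearest to Lhpp (SD 0.65) was Leap2, a secreted liver peptide gene, at 0.23 against a median of 0.65, followed by Arhgap40, Tff1, Fgf21 and Hpgd at 0.25 to 0.27. Nearest to Oat (SD 0.62) was Abcb1a, a drug efflux pump gene, at 0.19 against a median of 0.62. Abcb1a had mean levels of 8.76 ± 0.40, 7.90 ± 0.29 and 7.58 ± 0.39 over days 1, 7 and 14 (SD, n = 4), beside 8.36 ± 0.37, 7.62 ± 0.44 and 7.23 ± 0.45 for Oat. Castor1, Mme, Tnfrsf26 and Itih5 followed at 0.21 to 0.24.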

How the data were processed

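Total RNA of 12 spheroid samples was hybridised to 1 expression array each. The deposited values are on the log2 scale, 1 per probe set and array, for 13081 probe sets. Per the submitters' processing notes, RMA, Transcriptome Analysis Console 4.0 and Partek 7.0 were used, with roles not given in the sources used here. Of the probe sets 11889 had 1 symbol and 1192 none; keeping the brightest per symbol left 11861 genes.

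Tests used limma 3.58.1 in R 4.3.3 (lmFit, contrasts.fit, eBayes), tested on simulated data, with a mean for each of 6 groups over 12 arrays, two-sided, and Benjamini-Hochberg adjustment over all genes. Genes passed at an adjusted p under 0.05. A day comparison averages the change over both sexes, with the model's SE. For sex over all days, arrays were averaged per preparation first. Preparations are pools of mice: the spread behind each p is that between pools, and the number of pools limits the precision (median SE 0.0946 for a day comparison). The fit over 12 arrays took the arrays of a pool as independent, so a pool entered the estimate of the spread at each day. A sex comparison within a day rests on 2 pools per sex.

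The donor number names the same pool at each day, per the labels, which pairs the days. Deviations from group means correlated at 0.0359 to 0.324 between days of a pool.

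Named genes are the members and, from each further list, up to 3 that changed most among those passing a day comparison, or the 1 that changed most where none passed; some are not printed. Alb, Rspo3, Wnt9b, Lgr4, Tcf7l2, Znrf3, Nkd1, Cyp1a1, Otc, Nr1i3, Pon1, Cyp2a5, Kremen1, Kdr, Pecam1, Krt7 and Sox9 were added with their values seen. Members and lists were chosen with earlier results of these data known. Of 10 lymphocyte and erythroid markers 0 were measured. Alternatives were the preparation block, leaving out each preparation, a second quantile normalization, median centring, a trended and robust spread, a minimum mean of 6 and the mean of a symbol's probe sets.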

Additional observations from a re-analysis of the deposited data

How the results depend on the processing

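Without any 1 preparation, the number of members called ran from 0 to 0 for day 7 against day 1 (1 with all) and from 1 to 2 for day 14 against day 1 (3 with all). The genes called ran from 40 to 75 of 560, 0 to 8 of 58 and 494 to 826 of 1706 for day 7 against 1, 14 against 7 and 14 against 1. They ran from 3 to 21 of 91, 4 to 18 of 42 and 11 to 113 of 126 for the sexes at days 1, 7 and 14, and from 3 to 26 (21 with all) over all 3 days. For how the sexes differed in their change they ran from 0 to 1 (day 14 against 7) and 0 to 17 (day 14 against 1), with 0 in the full fit.

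With the preparation as a replicate block, 1 member (Lhpp) and 101 genes were called for day 14 against day 7, and 1 gene for the sex difference in day 14 against day 1; no other call among the members changed, and no such fit exists for the sexes, since a preparation has 1 sex. A trended and robust spread called 956 and 309 genes for day 7 against 1 and 14 against 7, 292, 178 and 411 for the sexes at days 1, 7 and 14, 974 for the sexes over all 3 days, and 14 for how the sexes differed in day 14 against 1. It called 1 member (Oat) for the sexes at each single day and 5 over all days. With a mean of at least 6, which leaves out Cyp2e1, Tbx3, Slc1a2 and Rgn, 103 genes were called for day 14 against 7, 70 for the sexes at day 7 and 282 over all days; 1 member (Oat) was called for the sexes at day 14 and 2 (Oat and Lect2) over all days. The cause of these differences was not tested. A second quantile normalization and median centring changed no call among the members. Averaging probe sets changed none either, but it could not move the members' values, since each had 1 probe set.

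Values that turned sign when 1 preparation was left out, none of them called, were Cyp1a2 (-0.14 to 0.088, -0.064 to 0.27 and -0.10 to 0.25 for day 7 against 1, 14 against 7 and 14 against 1), Cyp2e1 (-0.25 to 0.31, day 7 against 1), Slc1a2 (-0.72 to 0.42, day 14 against 1, and -0.21 to 0.38, sex over all days) and Lect2 (-0.076 to 0.25, day 14 against 1). In the sex difference of day 14 against 1 these were Cyp1a2 (-0.43 to 0.26), Tbx3 (-0.55 to 0.10), Slc1a2 (-1.05 to 1.22) and Lect2 (-0.14 to 0.51).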

Other observations

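Among transcription factors that keep hepatocytes differentiated, 13 of 14 listed were measured. In day 14 against day 1 Ppara, Nr5a2 and Rxra rose and Foxa2 fell (limma). Of all genes 7.59% were called higher and 6.8% lower. Ppara, the fatty acid receptor gene, had mean levels of 7.72 ± 0.20, 8.15 ± 0.16 and 8.21 ± 0.26 over days 1, 7 and 14 (SD, n = 4), a change of 0.49 ± 0.11 (SE, limma adjusted p = 0.023). Foxa2, a forkhead factor, had mean levels of 9.55 ± 0.07, 9.24 ± 0.08 and 9.20 ± 0.12, a change of -0.34 ± 0.08 (limma adjusted p = 0.0204). Rxra, the partner of many nuclear receptors, rose by 0.32 ± 0.06 in day 7 against day 1 (limma adjusted p = 0.0216), and Nr5a2, a bile acid pathway regulator, rose by 0.24 ± 0.06 by day 14 (limma adjusted p = 0.0334, or 0.0609 when blocked on preparation). Hnf4a, a central hepatocyte factor, differed by -0.15 ± 0.06 (limma adjusted p = 0.12). Calls were lost for Rxra at day 7 and Nr5a2 at day 14 whichever preparation was left out (adjusted p = 0.118 to 0.256 and 0.118 to 0.214), and for Ppara and Foxa2 in 3 of 4 such fits (up to 0.178 and 0.18).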
